A study of Mus musculus with 48 samples.

Results

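Igkv8-16 is a Vκ gene segment of the mouse Igκ light chain locus, and its joints to the Jκ1 bait were taken from 48 HTGTS-JoinT-seq libraries of vAbl pro-B cells. A junction belonged to Igkv8-16 when its prey position lay within 200 bp of the Igkv8-16 break on chromosome 6. This rule gave 132846 of the 7265223 junctions in the Vκ region of chromosome 6 and of 8250887 junctions in all, and the segment is 1 of 137 Vκ break sites found in these data. Of these junctions, 130942 lay within 50 bp of the break, 127 lay 151 to 200 bp from it, and a further 115 lay just outside, 201 to 250 bp from it. Libraries held 7 to 11510 Igkv8-16 junctions. Igkv8-16 was selected on its usage in these libraries, which separated Ku70-/- from WT cells, so its usage and its joints in Ku70-/- against WT cells are given as a description without a test.

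vAbl cells are pro-B cells transformed by the Abelson kinase, and STI-571 blocks that kinase, arrests them in G0-G1 and starts RAG1/2 cutting. The WT cells were a single clone, and so were the Ku70-/- cells, which are deficient in Ku, an end-binding complex of NHEJ, and join DSBs by A-EJ. A difference between the genotypes therefore cannot be told apart from other differences between these 2 clones, and the junction lists hold no measure of the Ku70 deletion itself. Each genotype has 24 libraries, 3 in each of 4 treatments for each of 2 baits. The treatments were none (cycling), STI-571 at 3 μM for 96 h with DMSO, the same STI-571 with L67 at 5 μM, and the same STI-571 with L82-G17 at 25 μM. L67 and L82-G17 inhibit DNA ligases. The baits were the Jκ1 coding end (CE) and the Jκ1 signal end (SE). The study describes its experiments as biological repeats, but its text does not cover the ligase inhibitor libraries and the labels do not tie the 3 libraries of a group to separate cultures, so the spread within a group may be technical.

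Every library was taken down to 500000 read pairs, and STI-571-treated libraries held 116039 to 385847 junctions against 8294 to 32108 in cycling cells. Of the 3 Ku70-/- DMSO libraries for each bait, 1 is missing from the study's own library lists and stands apart. In that unlisted library the Igkv8-16 junctions came from 16 distinct junctions with the CE bait and 9 with the SE bait, against 203 to 250 and 202 to 277 in the listed DMSO libraries. Values over STI-571-treated Ku70-/- libraries are therefore given over the 8 listed libraries unless stated, and tests are also given without the unlisted library where that changes a call. Intervals printed for single libraries are 95% Wilson intervals of a count. They cover counting error only, and since duplicates were kept, copies of one joint were counted as if independent.

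V(D)J recombination joins a V segment to a J segment after RAG1/2 cut between each coding segment and its recombination signal sequence (RSS), which is a heptamer, a spacer and a nonamer. Each cut leaves a coding end, sealed as a hairpin that must be opened and is often trimmed, and a blunt signal end. NHEJ joins coding end to coding end and signal end to signal end, and a joint of a coding end to a signal end is a hybrid joint. With the CE bait a hybrid joint has a signal end prey, and with the SE bait it has a coding end prey.

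On mm9, Igkv8-16 (ENSMUSG00000076591.2, GENCODE vM1) spans chr6:70336666-70337232 on the minus strand, 567 bp with 2 exons. Exon 1 is 49 bp long (70337184 to 70337232) and exon 2 is 313 bp long (70336666 to 70336978). Exon 2 ends at the break, so the first coding base is 70336666 and the first signal base is 70336665. Jκ1 lies on the plus strand with its break 335.891 kb away, so Igkv8-16 rearranges by inversion, as do 74 of the 137 sites. The sequences below show what RAG1/2 cut, 5′ to 3′ on the gene's strand. The Vκ lines give the last 40 coding bases followed by the RSS, and the Jκ1 line gives its RSS followed by its coding bases. Capitals mark the heptamer and the nonamer, which flank a 12-bp spacer in the Vκ RSS and a 23-bp spacer in the Jκ1 RSS. The second line is a site with no annotated gene, and Igkv8-24 is the next most similar coding end.
Igkv8-16, chr6:70336638-70336705, minus strand: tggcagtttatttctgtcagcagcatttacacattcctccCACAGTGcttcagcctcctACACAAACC
Unannotated site, chr6:70190393-70190460, minus strand: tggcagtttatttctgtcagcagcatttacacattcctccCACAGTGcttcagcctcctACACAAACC
Igkv8-24, chr6:70166824-70166891, minus strand: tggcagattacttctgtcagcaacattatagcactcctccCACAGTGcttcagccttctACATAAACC
Jκ1, chr6:70672517-70672593, plus strand: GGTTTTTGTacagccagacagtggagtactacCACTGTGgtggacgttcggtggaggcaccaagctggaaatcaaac

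The unannotated site is a near-identical copy of the Igkv8-16 end. Its break lies at 70190420, 146.245 kb farther from Jκ1 than that of Igkv8-16, between Igkv8-24 and Igkv6-23. RefSeq on GRCm38 names 1 V segment between these neighbors, Igkv8-23-1. Counted from the break, the coding sides of the 2 sites are the same for 275 bases and first differ at base 276. The signal sides are the same for 62 bases and then differ at 3 of the first 100, bases 63, 67 and 94. The first 275 coding bases occur in mm9 at 2 places, and the first 100 signal bases at 1. The coding side of the next most similar site, Igkv8-24, matches at 88 of 100 bases. The lines below show where the coding sides part, with the 21 bases that the copy lacks in capitals. Past this gap the next 100 bases match at 100 positions.
Igkv8-16, chr6:70336921-70336981, minus strand: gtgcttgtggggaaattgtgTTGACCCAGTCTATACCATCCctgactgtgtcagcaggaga
Copy, chr6:70190676-70190715, minus strand: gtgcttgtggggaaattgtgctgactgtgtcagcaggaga

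Usage is given as Igkv8-16 junctions per 1000 junctions of the Vκ region. From the CE bait, WT libraries used Igkv8-16 at 7.24, 4.29 and 3.38 with DMSO, 4.49, 3.58 and 5.17 with L67, and 3.59, 1.61 and 6.43 with L82-G17. Ku70-/- libraries used it at 19.8 and 19.1 with DMSO (21.4 in the unlisted library), 17.7, 18.7 and 18.0 with L67, and 19.6, 18.6 and 18.8 with L82-G17. The lowest Ku70-/- library thus lay above the highest WT library, at 18.8 ± 0.717 (SD, n = 8) against 4.42 ± 1.69 (SD, n = 9). With the SE bait the levels were closer. WT libraries held 29.7, 35.0 and 32.6 with DMSO, 32.7, 30.3 and 28.1 with L67, and 30.3, 31.6 and 34.8 with L82-G17, or 31.7 ± 2.33 (SD, n = 9). Ku70-/- libraries held 26.0 and 21.7 with DMSO (5.69 in the unlisted library), 31.5, 21.7 and 24.4 with L67, and 22.96, 25.8 and 28.2 with L82-G17, or 25.3 ± 3.37 (SD, n = 8). By these means Igkv8-16 ranked 67th of the 137 sites in WT and 15th in Ku70-/- from the CE bait, and 5th and 7th from the SE bait.

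**Figure D1:**
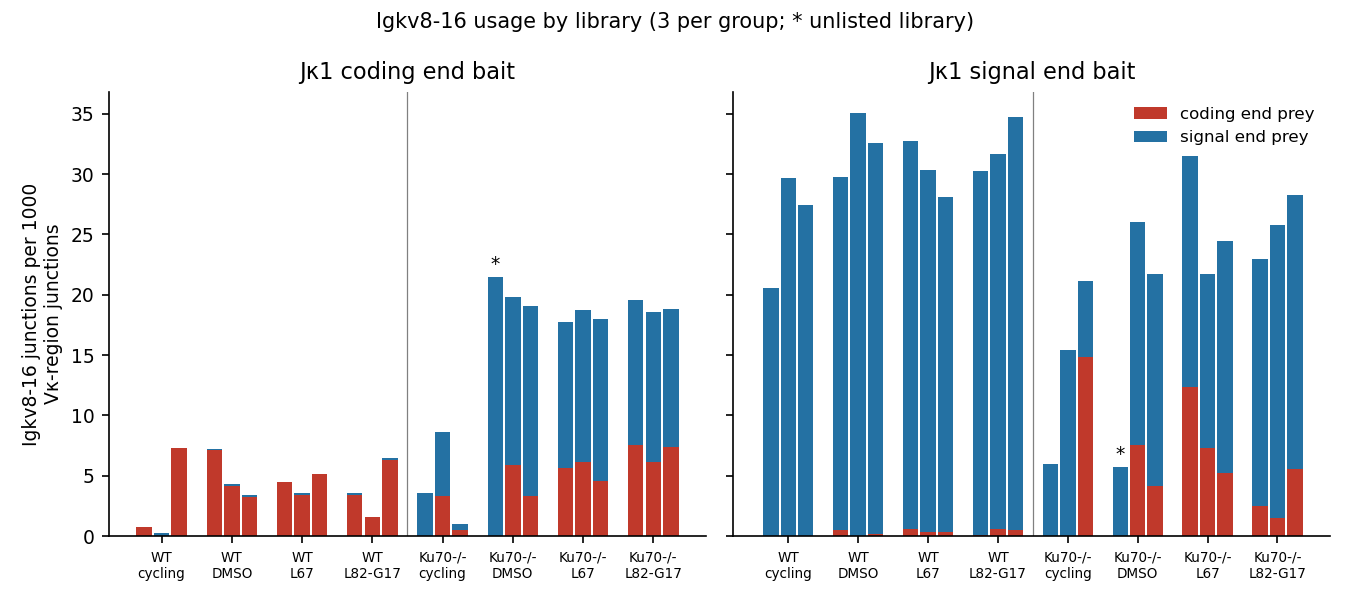
Igkv8-16 junctions per 1000 Vκ-region junctions in each of the 48 libraries, 1 bar per library, for the Jκ1 coding end bait (left) and signal end bait (right), with coding end preys in red and signal end preys in blue. In STI-571-treated cells coding preys make up nearly all of the WT bars from the CE bait, signal preys make up most of the Ku70-/- bars from that bait, and WT bars from the SE bait are almost wholly signal preys.

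In cycling cells the same segment was used at 0.742, 0.256 and 7.30 (WT, CE bait), 3.56, 8.60 and 1.02 (Ku70-/-, CE bait), 20.6, 29.7 and 27.4 (WT, SE bait) and 5.93, 15.4 and 21.1 (Ku70-/-, SE bait). Cycling libraries rest on few joints. The WT CE value of 0.256 is 7 copies of 1 distinct junction (95% interval 0.124 to 0.529), and cycling CE libraries of either genotype held 1 to 12 distinct Igkv8-16 junctions.

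As a log2 difference of group means with the value of 1 junction added, Ku70-/- minus WT from the CE bait came to 2.09 with DMSO (2.04 without the unlisted library), 2.06 with L67 and 2.51 with L82-G17, with no overlap of libraries. These rank 2nd, 3rd and 2nd of the 111 sites with at least 50 junctions a library on average, where the median site lay at -0.59, -0.17 and -0.19. Without the unlisted library the DMSO difference ranked 3rd and the median site lay at -0.12. With the SE bait the difference was -1.13 with DMSO (-0.44 without the unlisted library), -0.24 with L67, where libraries overlapped, and -0.33 with L82-G17. In cycling cells it was 1.48 (CE) and -1.01 (SE), with overlapping libraries. With each distinct junction counted once, the differences in the same order of treatments were 1.17, 1.28 and 1.78 (CE), and those from the SE bait turned to 0.10, 0.52 and 0.45. The genotype differences are given again below among preys of at least 300 bp, a limit that weighs coding and signal preys unequally.

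The end that was joined separates these numbers. In WT cells coding preys from the CE bait had a usage of 4.31 ± 1.69 and signal preys from the SE bait 31.3 ± 2.38 (SD, n = 9 each), although a RAG1/2 cut makes both ends together. Set against the other sites, coding usage ranked 68th of 137 and signal usage 5th. Over the 81 sites with a WT signal usage above 2, the log2 ratio of coding usage (CE bait) to signal usage (SE bait) had a median of 0.14 in WT, and Igkv8-16 had the lowest, at -2.85. The copy was 4th lowest at -1.99. In Ku70-/- cells the copy had the lowest ratio (-1.95) and Igkv8-16 the 2nd lowest (-1.74), with a median site at 0.44. Across the 81 sites, 8 share a coding run of at least 100 bases with another site, and the 6 of them other than Igkv8-16 and the copy had a median ratio of -0.35 in WT. The 6 that share a signal run of at least 100 bases had a median of 0.46. Among all 137 sites, 10 share such a signal run, and the filter on signal usage leaves out the rest. Igkv8-19 and Igkv8-28 are among those left out, each with a shared signal run of 105 bases and with ratios of 3.59 and 3.42. The median of 0.46 therefore does not cover sites with few signal preys. Igkv8-16 and the copy share the longest coding run of all.

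**Figure D2:**
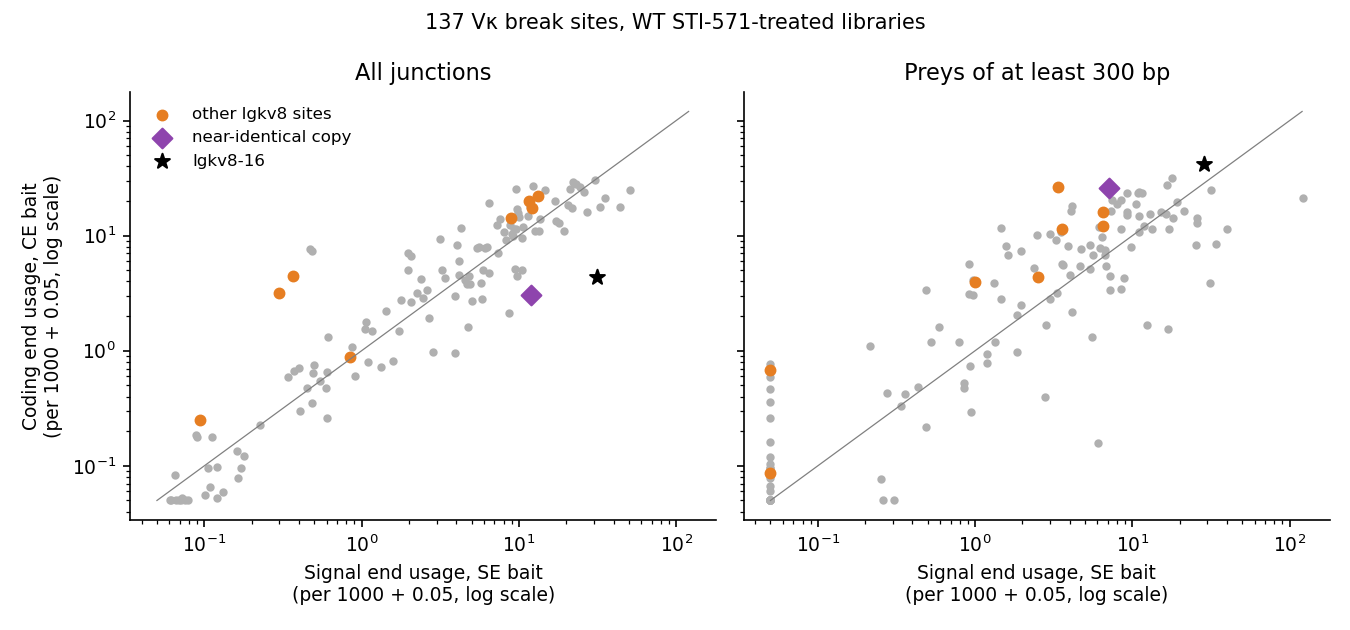
Coding end usage from the CE bait against signal end usage from the SE bait for the 137 Vκ break sites in WT STI-571-treated libraries, for all junctions (left) and for preys of at least 300 bp (right), on log scales with 0.05 added; each point is a site mean and the line marks equal usage. Igkv8-16 (star) and its copy (diamond) lie below the line among all junctions, and at log2 ratios of 0.56 and 1.87 among preys of at least 300 bp.

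The coding preys of Igkv8-16 were long. With the CE bait in WT, the aligned length of its 11584 coding preys had a median of 324 bp, and 99.4% of them extended to base 276 or beyond, the first base that tells the 2 sites apart; 64 did not. At all other sites the median coding prey was 152 bp, and 12.3% extended that far from the break. Across the 9 libraries the Igkv8-16 median ran from 319 to 326 bp and that of the other sites from 139 to 170 bp, so the ranges did not meet. In Ku70-/- cells the medians were 305 bp at Igkv8-16 and 172 bp elsewhere, with 99.6% and 23.4% extending to base 276. Signal preys, whose sides part at base 63, had medians of 129 bp (WT) and 164 bp (Ku70-/-) against 144 bp and 153 bp at the other sites. The copy showed the same, with median coding preys of 309 bp in WT and 294 bp in Ku70-/- cells and 99.3% and 99.4% extending past the identical stretch. No read was mapped again here, and the part that read placement between the copies has in the usage of Igkv8-16 was not tested.

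**Figure D3:**
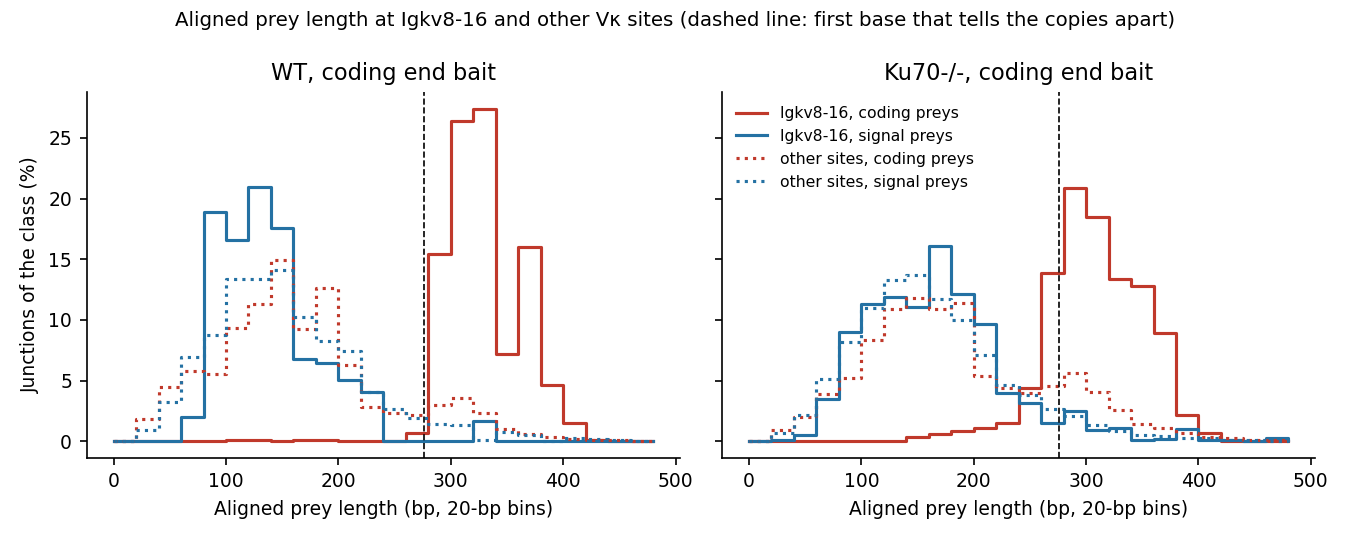
Aligned prey length of junctions from the CE bait in WT (left) and Ku70-/- (right) STI-571-treated libraries, as percent of each class in 20-bp bins, for Igkv8-16 (solid lines) and all other Vκ sites (dotted lines), with coding preys in red and signal preys in blue. The dashed line stands at a length of 276 bp. The coding preys of Igkv8-16, with medians of 324 bp (WT) and 305 bp (Ku70-/-), lie mostly to its right, and those of other sites, with medians of 152 bp and 172 bp, mostly to its left.

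When Igkv8-16 and the denominator were both limited to preys of a minimum length, its coding usage rose with that minimum. In WT with the CE bait it went from 4.31 ± 1.69 over all lengths to 8.11 ± 2.25 at 150 bp, 16.9 ± 3.38 at 200 bp, 29.1 ± 5.40 at 250 bp and 42.2 ± 8.43 at 300 bp (SD, n = 9). At 300 bp its lowest library had 32.4 and it ranked first of the 137 sites. Signal usage with the SE bait did not rise in this way, at 31.3 ± 2.38 over all lengths and 28.5 ± 13.8 at 300 bp. The log2 coding to signal ratio in WT became 0.56 at 300 bp, equal to the median site. In Ku70-/- cells with the CE bait, coding usage went from 5.82 ± 1.39 to 36.5 ± 7.68 (SD, n = 8), and total usage from 18.8 ± 0.717 to 42.2 ± 8.37, where WT total usage was 42.2 ± 8.44. With listed libraries and preys of at least 300 bp, the log2 genotype difference from the CE bait was -0.19 with DMSO, -0.02 with L67 and 0.18 with L82-G17. This limit weighs the ends unequally. Of Igkv8-16 coding preys from the CE bait, 83.4% (WT) and 56.6% (Ku70-/-) reached 300 bp, against 3.74% of its Ku70-/- signal preys, which make up most of its Ku70-/- junctions and are thereby largely removed. Long preys are few, at 3.89 to 13.4% of junctions in WT and 5.39 to 12.2% in Ku70-/- libraries from the CE bait.

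**Figure D4:**
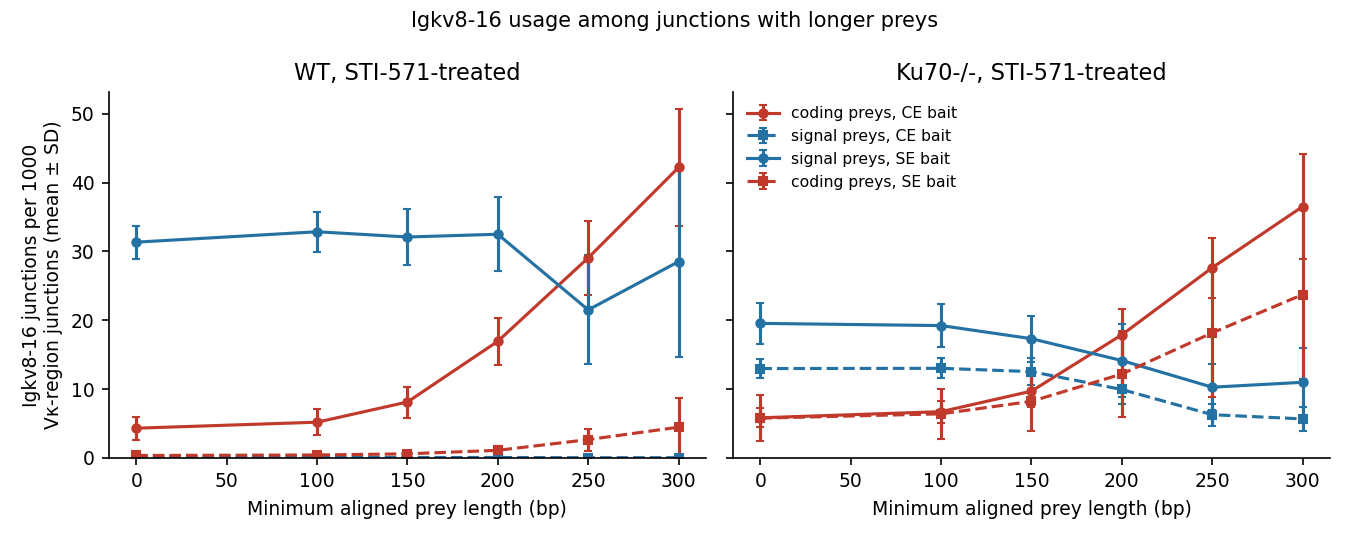
Igkv8-16 junctions per 1000 Vκ-region junctions when both are limited to preys of at least the length on the x axis, as mean ± SD over 9 WT (left) and 8 listed Ku70-/- (right) STI-571-treated libraries. Coding preys from the CE bait rise from 4.31 to 42.2 in WT and from 5.82 to 36.5 in Ku70-/- cells, while signal preys from the SE bait go from 31.3 to 28.5 and from 19.5 to 10.97.

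In WT cells most joints were precise with the SE bait and trimmed by a few bases from the CE bait. With the SE bait, 69888 junctions, 95.8% of those in the 9 STI-571-treated libraries, were 1 joint of the uncut signal ends at 70336665 and 70672555. This joint led in each of the 9 libraries, at 93.6 to 97.2%. The signal end had lost no base in 98.1 ± 1.02% of signal preys (SD, n = 9). From the CE bait, the leading joint lost 3 bases of Igkv8-16 and none of Jκ1 and made up 25.8% of junctions, from 16.5 to 49.8% in single libraries. It led in each of the 9 libraries. The next lost 1 base and 2 bases and made up 14.1%. Each of these 3 joints was found in 9 of 9 libraries. WT libraries held 19 to 114 distinct Igkv8-16 junctions from the CE bait and 13 to 38 from the SE bait. The 20 bases on each side of these joints, with Jκ1 bases in capitals, show the precise signal joint with its adjoining heptamers and the trimmed coding joints.
WT signal joint, SE bait, no bases lost: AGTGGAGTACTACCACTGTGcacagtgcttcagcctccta
WT coding joint, CE bait, 3 Igkv8-16 bases lost: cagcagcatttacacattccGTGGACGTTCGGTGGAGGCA
WT coding joint, CE bait, 1 Igkv8-16 and 2 Jκ1 bases lost: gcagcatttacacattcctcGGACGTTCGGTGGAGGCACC

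In Ku70-/- cells no joint dominated. From the CE bait, listed libraries held 198 to 295 distinct Igkv8-16 junctions and the leading joint of a library made up 1.73 to 4.62%. SE bait libraries held 136 to 317, led by 2.66 to 6.17%. Over the 8 listed libraries, the leading CE joint was a hybrid of the signal end (6 bases lost) with Jκ1 (9 bases lost), at 1.59%. The leading coding joint, at 0.842%, lost 8 and 4 bases and shared 2 bases of MH. With the SE bait the precise signal joint that made up 95.8% in WT still led, at 2.25%. In second place, at 1.95%, was a joint whose bait and prey alignments overlapped by 8 bp at the heptamers, so that 1 heptamer remains in it. Read away from its own break, the heptamer of Igkv8-16 and that of Jκ1 are both CACAGTG. Along the joint the Jκ1 heptamer runs in the opposite direction and reads CACTGTG, so this overlap holds a mismatch. It was still counted as MH, since MH was read from the length of the overlap. In the unlisted library, 1 joint made up 33.0% (CE bait) and 93.3% (SE bait) of Igkv8-16 junctions. The joints are printed as above, with overlapping bases given to Jκ1.
Ku70-/- hybrid joint, CE bait: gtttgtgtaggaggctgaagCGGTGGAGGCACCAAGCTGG
Ku70-/- coding joint, CE bait, 2 bases of MH: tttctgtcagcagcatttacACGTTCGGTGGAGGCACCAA
Ku70-/- signal joint, SE bait, 8-bp overlap at the heptamer: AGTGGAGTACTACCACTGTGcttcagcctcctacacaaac

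Trimming followed the same division. WT coding preys from the CE bait kept all bases in 16.4% of 11584 junctions, lost 1 to 3 bases in 66.8%, 4 to 10 in 14.5% and 11 to 50 in 1.92%, and none lost more. The 770 WT coding preys from the SE bait, which form hybrid joints, differed, with 5.19% that kept all bases and 72.2% that lost 11 to 50. These shares rest largely on copies of few joints. The 5 leading joints held 137, 91, 78, 68 and 59 of the 770 preys, and those with 91, 78 and 59 were each found in 1 library. Among 5340 Ku70-/- coding preys from the CE bait the shares that lost 0, 1 to 3, 4 to 10 and 11 to 50 bases were 0.150%, 1.22%, 25.3% and 66.7%, and 6.61% lost 51 to 200 bases. The median loss in a library was 2 to 3 bases in WT and 16 to 26 in Ku70-/- cells. Signal preys from the SE bait had a median loss of 0 in each WT library and of 6 to 11 in the Ku70-/- libraries. On the bait side, CE libraries had a median loss of 0 to 1 base of Jκ1 in WT coding joints and of 16 to 20 bases in Ku70-/- coding joints. With the SE bait, 8.92% of 19353 Ku70-/- signal preys began past the break, on the coding side, against 0.345% of 72176 in WT. An overlap of the prey and bait alignments can place a prey there, since an overlapping base is counted on both sides whether or not the 2 sequences match at it.

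**Figure D5:**
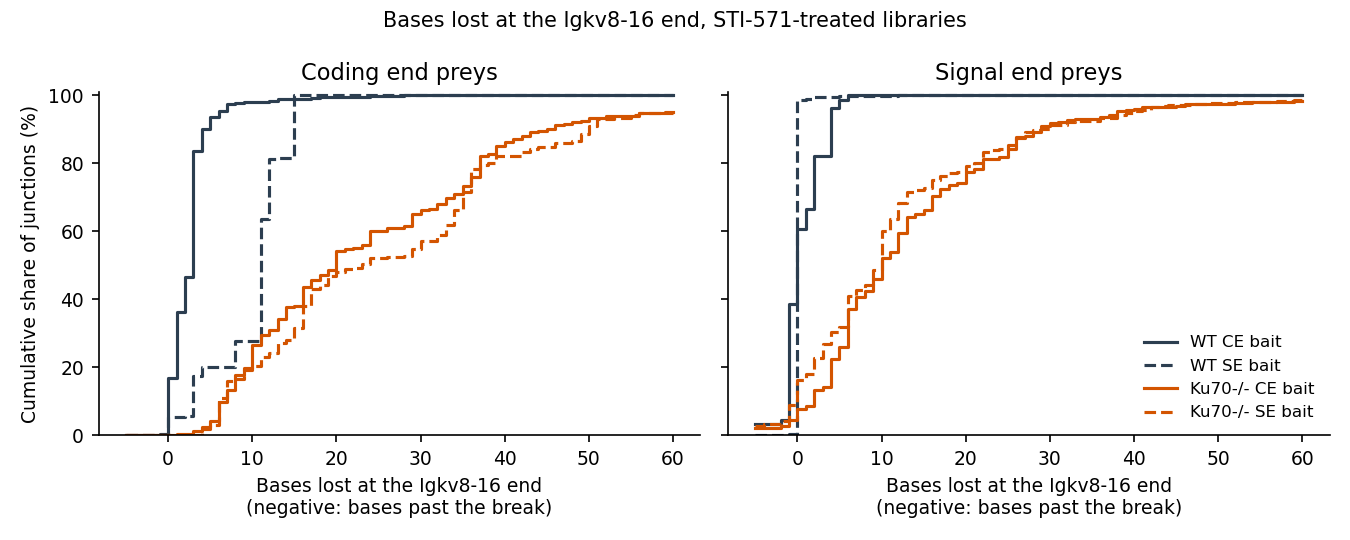
Cumulative percent of Igkv8-16 junctions by bases lost at the Igkv8-16 end, for coding end preys (left) and signal end preys (right) pooled over STI-571-treated libraries (9 WT, 8 listed Ku70-/-), with the CE bait as solid and the SE bait as dashed lines. The WT signal preys from the SE bait stand at 0 bases lost, the WT coding preys from the CE bait mostly at 0 to 3, and the Ku70-/- curves and the 770 WT coding preys from the SE bait spread farther along the axis.

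By joint type, hybrid joints made up 2.91 ± 1.47% of Igkv8-16 junctions from the CE bait in WT (1.00 to 5.15%, n = 9) and 69.1 ± 7.06% in Ku70-/- cells (60.8 to 82.5%, n = 8). From the SE bait they made up 1.10 ± 0.660% and 22.3 ± 11.2% (0 to 1.81% and 5.73 to 39.1%). With each distinct junction counted once, this SE difference between genotypes was smaller, as given in the closing section. At preys of at least 300 bp the CE shares were 0.0508 ± 0.152% in WT and 13.6 ± 3.94% in Ku70-/- cells, and the SE shares were 13.3 ± 11.1% and 64.3 ± 27.2%, so the Ku70-/- CE share was lower than over all lengths and still above that of WT. Positions within 10 bp of the break held 98.2 ± 0.531% of CE junctions in WT and 43.3 ± 7.29% in Ku70-/- cells, and 99.0 ± 0.872% and 49.6 ± 6.01% of SE junctions.

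Joint structure was read from junctions whose bait and prey alignments overlapped or stood apart by at most 20 bp. Direct joints, with neither overlap nor insertion, made up 74.8 ± 4.27% (WT) and 48.05 ± 4.04% (Ku70-/-) from the CE bait, and 97.8 ± 0.848% and 56.6 ± 5.94% from the SE bait. MH of more than 1 bp was found in 1.97 ± 1.56% and 23.3 ± 6.07% (CE) and in 0.270 ± 0.412% and 18.3 ± 3.77% (SE). Insertions were found in 13.4 ± 4.67% and 1.56 ± 0.579% (CE) and in 1.28 ± 0.584% and 0.814 ± 0.189% (SE), where libraries overlapped. The other comparisons of this paragraph showed no overlap between genotypes. The pooled other sites, over all 9 libraries, behaved alike, with overlap for SE insertions alone. Their direct share was 69.6 to 71.9% in WT against 48.1 to 53.4% in Ku70-/- libraries (CE) and 93.8 to 96.1% against 50.7 to 60.3% (SE). Their MH share was 2.09 to 3.00% against 11.7 to 21.9% (CE). With each distinct junction counted once, the direct share turned and was higher in Ku70-/- libraries, by 7.28 (CE) and 16.98 percentage points (SE) over all 9 libraries. Counted in this way, insertions were lower in Ku70-/- libraries by 38.6 (CE) and 33.9 points (SE), and MH from the SE bait was higher by 7.36 points.

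Of WT coding joints from the CE bait, 58.1 ± 5.15% kept the length in frame between Vκ and Jκ1 (48.4 to 65.6%, n = 9), and of distinct coding joints 37.8 ± 3.39%. The leading 2 joints above are both in frame. In Ku70-/- cells the shares were 32.2 ± 7.61% and 32.5 ± 2.73% (n = 8), and the leading coding joint is out of frame. Frame was taken from the number of bases lost and gained as a multiple of 3, without a search for stop codons.

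Usage was compared between treatments with limma over all sites, with Benjamini-Hochberg adjustment and a threshold of 0.05. With the CE bait in Ku70-/- cells, usage with DMSO minus cycling was 2.60 on the log2 scale (SE 0.84, 3 libraries a group). It is given without a test, since these DMSO libraries are among those the segment was selected on. In this contrast 42.3% of the 111 sites were called. The value was 1.83 without the third cycling library, 1.07 with each distinct junction counted once, 2.09 per 1000 junctions at break sites, 2.07 with median-centering and 1.71 at preys of at least 300 bp. In WT from the CE bait the change, given without a test for the same reason, was 1.98 (SE 0.84), and 20.7% of sites were called. It was 3.29 without the third cycling library, which holds 215 of the 237 cycling junctions, and 1.61 with each distinct junction counted once. Leaving out another library also lowered it, as the range in the closing section shows. For the SE bait the changes, also without a test, were 0.34 in WT (SE 0.48, with 44.5% of sites called) and 0.22 in Ku70-/- cells (SE 0.48, with 33.6% called). The latter was 1.25 per 1000 of all junctions, -0.90 with median-centering and 0.90 without the unlisted library.

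Usage changes with the ligase inhibitors against DMSO are also given without a test. The inhibitor and DMSO libraries are all among those the segment was selected on. From the CE bait, log2 changes were -0.11 (L67) and -0.50 (L82-G17) in WT and -0.15 and -0.08 in Ku70-/- cells, each with an SE of 0.84. By this SE a change of 1 in either direction lies within 2 SEs of each value. The fit shares its spread over all libraries of a bait, cycling ones included, so the SE does not measure the spread of the libraries compared. Usage in STI-571-treated libraries ran from 17.7 to 19.8 in Ku70-/- (listed) and from 1.61 to 7.24 in WT cells. For the SE bait the changes were -0.10 and -0.01 in WT and 0.79 and 0.79 in Ku70-/- cells, each with an SE of 0.48. In these contrasts limma called 0% of all sites, except 0.909% (1 of 110) for L82-G17 in Ku70-/- cells from the SE bait. At an unadjusted p under 0.05 the contrasts without a call held 0, 2, 8 and 19 sites (CE, in the same order) and 0, 1 and 13 (SE). The Ku70-/- changes of 0.79 include the unlisted DMSO library, whose usage was 5.69, and without it both were 0.10.

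Joint measures at Igkv8-16 were compared between each inhibitor and DMSO by exact two-sided permutation tests of 3 libraries against 3, which cannot go below p = 0.1. None of 40 comparisons passed after Benjamini-Hochberg adjustment. Libraries of the 2 treatments did not overlap in 12 of them, each with an exact p of 0.1 and adjusted p = 0.333. The pooled other sites did not overlap in 18 of the same 40 comparisons, and single other sites in 12.7% of 3940. The largest of these from the CE bait was the hybrid share in Ku70-/- cells, 61.4, 67.1 and 60.8% with L82-G17 against 70.3 and 82.5% in the listed DMSO libraries and 100% in the unlisted one. MH of more than 1 bp in the same libraries was 20.7 to 35.2% with L82-G17 against 20.1 and 17.1% in the listed DMSO libraries and 15.2% in the unlisted one. The libraries with L82-G17 were thus lower in hybrid joints and higher in MH than each DMSO library, by amounts that this exact test of 3 against 3 cannot call. The pooled other sites of these libraries differed in the same direction, with hybrid shares of 22.3 to 23.6% against 31.96 to 38.9% and MH of 20.3 to 21.9% against 11.7 to 16.9%.

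Igkv8-16 was then set against the junctions of all other Vκ sites of the same library, in the 9 STI-571-treated libraries of each genotype and bait. The test was an exact two-sided sign-flip permutation of the within-library differences, adjusted over 20 comparisons, with 0.00391 as the smallest possible p. Hybrid shares are given without a test, since signal preys make up most of its Ku70-/- junctions, whose usage entered the selection. They stay among the 20 comparisons, and their small p-values lower the adjusted p-values of the other measures. Those measures are shares of the same junctions, so their tests rest on junctions that the selection used. In Ku70-/- cells from the CE bait, hybrid joints made up 72.5% at Igkv8-16 and 30.5% elsewhere, a difference of 42.0 ± 8.85 percentage points (SD), higher in 9 of 9 libraries. Igkv8-16 had the 2nd highest share of 98 sites. From the SE bait they made up 19.8% against 46.1%, lower by 26.2 ± 10.2 points in 9 of 9 libraries. In both baits, then, Ku70-/- junctions at Igkv8-16 held more signal preys than those of the rest of the locus. So did those at the copy, with a Ku70-/- usage of 7.10 ± 1.05 for signal and 3.17 ± 0.919 for coding preys from the CE bait and of 12.4 ± 1.84 and 4.24 ± 1.18 from the SE bait (SD, n = 8). At preys of at least 300 bp the differences at Igkv8-16 were 0.52 and 2.77 points. In WT from the CE bait the hybrid share was 2.91% against 0.271%, higher in 9 of 9 libraries by 2.63 ± 1.45 points, and ranked 2nd highest of 115 sites. It was higher by 0.71 with prey ends told by the side of the break and lower by 0.10 at preys of at least 300 bp. No rank was taken in these 2 settings.

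The other differences from the rest of the locus were at most 5.43 percentage points among those that passed. The limits above hold for each p-value here. In addition, the 9 libraries of a test come from a single clone and their spread may be technical, so the p-values may not measure spread between cultures. In WT, direct joints were higher at Igkv8-16 by 4.23 points from the CE bait (adjusted p = 0.0426) and by 2.98 points from the SE bait (adjusted p = 0.0156, exact permutation, 8 and 9 of 9 libraries). WT SE junctions had less MH, by 0.46 points (adjusted p = 0.0426), and fewer insertions, by 0.76 points (adjusted p = 0.0293, exact permutation, 8 of 9 libraries each). In Ku70-/- cells MH differed by 4.35 points from the CE bait (8 of 9 libraries, adjusted p = 0.0293) and by -5.43 points from the SE bait (7 of 9 libraries lower, adjusted p = 0.0347, exact permutation). Without the unlisted library the latter was -3.31 (exact permutation, adjusted p = 0.0521). Insertions were lower by 0.90 (8 of 9 libraries, adjusted p = 0.0293) and 0.71 points (9 of 9, adjusted p = 0.0156, exact permutation). For each of these measures other single sites lay farther out. From the highest, direct joints in WT ranked 36th of 115 sites (CE) and 20th of 113 (SE), and Ku70-/- CE MH 17th of 98. From the lowest, WT SE MH and insertions ranked 25th and 19th of 113. Ku70-/- insertions ranked 26th of 98 (CE) and 24th of 100 (SE) from the lowest, and Ku70-/- SE MH 13th of 100. With signal preys alone, the direct share in WT SE libraries was higher by 2.47 points in 9 of 9 (exact permutation, adjusted p = 0.0781), and the other differences of this paragraph for SE libraries and for Ku70-/- CE libraries had adjusted p-values from 0.104 to 0.355. With each distinct junction counted once, the calls for direct joints in WT CE libraries (6.67 points) and for MH in Ku70-/- CE libraries (4.49 points) held, each with an exact permutation adjusted p of 0.0130. The others were lost, at 0.65 points for direct joints, -0.88 for MH and -0.52 for insertions in WT SE libraries, -3.25 for insertions in Ku70-/- CE libraries, and -3.94 for MH and -0.66 for insertions in Ku70-/- SE libraries, with adjusted p-values from 0.0521 to 0.900 (exact permutation). The share within 10 bp of the break did not pass in any genotype or bait, with differences from -3.04 to 2.97 points.

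Each of the 8 other annotated Igkv8 segments with a break site had a higher mean usage from the CE bait than from the SE bait in WT, by less than the spread for Igkv8-18, whereas Igkv8-16 and the unannotated copy had a lower one. Igkv8-21, at 71.777 kb, had a WT usage of 22.1 ± 2.55 from the CE bait and 13.4 ± 2.38 from the SE bait, and a Ku70-/- CE usage of 22.2 ± 2.17. Igkv8-24 had 17.5 ± 3.91 and 12.2 ± 2.73 in WT, Igkv8-27 had 20.2 ± 1.20 and 11.6 ± 2.48, and Igkv8-30 had 14.2 ± 0.918 and 8.97 ± 1.27. Igkv8-19 and Igkv8-28 had CE usages of 4.39 ± 1.59 and 3.15 ± 0.883 with SE usages of 0.531 ± 0.226 and 0.266 ± 0.253. Igkv8-18 and Igkv8-26, the deletional members, stayed below 1 from the CE bait, at 0.833 ± 0.168 and 0.198 ± 0.0481. The copy was used at 3.02 ± 1.00 and 12.2 ± 1.14 in WT and at 10.3 ± 0.705 and 16.7 ± 1.34 in Ku70-/- cells, lower than Igkv8-16 in each of these means.

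Of the 5 sites on either side of Igkv8-16, the nearest gene toward the distal end, Igkv6-17 at 14.677 kb, was used at 16.2 ± 3.30 (CE) and 27.3 ± 5.40 (SE) in WT and at 17.9 ± 5.43 and 22.5 ± 4.26 in Ku70-/- cells. The nearest toward Jκ1, Igkv6-15 at 19.797 kb, was used at 4.26 ± 0.461 and 3.47 ± 0.650 in WT. The remaining neighbors, other than Igkv8-19 and Igkv8-18 given above, were used below 3 in each of these WT means: Igkv6-20, Igkv6-14, Igkv6-13 and 3 unannotated sites. Over the means of the 16 groups, the log2 usage of the copy was most like that of Igkv8-16 (Pearson r = 0.89), followed by Igkv10-94 (0.75) and Igkv12-41 (0.75), with a median of -0.001 over 107 sites. All sites of a group were read from the same libraries, so the values only describe the profiles. Among the 12 STI-571-treated groups the order was another. There r was 0.83 for the copy, 0.51 for Igkv10-94 and 0.37 for Igkv12-41, and Igkv1-135, which is named after its value was seen, had the highest at 0.89.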

How the data were processed

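HTGTS-JoinT-seq junction lists of 48 libraries were read as deposited. Per the labels and methods, the authors took each library to 500000 read pairs, mapped it to mm9 with TranslocWrapper.pl (Bowtie2), kept duplicates and deposited 1 line per junction with prey position, strand, bait end and alignment bounds. Junctions were counted per library; no read was mapped again. Groups came from the labels. Break sites were bases where signal ends of WT cells given STI-571 piled up to 30 junctions or more, with no higher base within 50 bp and CAC next. A prey end was told by strand. The log2 fits used R 4.3.3 and limma 3.58.1 with the value of 1 junction added, over sites with at least 50 junctions a library on average; this step was tested on simulated data. Permutations were enumerated with numpy 2.4.6, and Wilson intervals used scipy 1.17.1. Named sites were Igkv8-16, 5 sites on either side, all Igkv8 sites and the 3 of most similar profile. The gene, the lists and the tests were chosen with earlier results of these data known. Sequences were read from mm9 and its GENCODE vM1 annotation. Alternatives were other windows, denominators, centering, added values, prey end rules and joint classes, distinct junctions counted once, each sequencing run (the larger gave 90.2% of Igkv8-16 junctions), other Igkv8 sites only, listed libraries and leaving out each library. Preys of at least 300 bp and signal preys alone were added after seeing the data.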

Additional observations from a re-analysis of the deposited data

How the results depend on the processing

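Usage values here are log2 differences and joint values are percentage points; "genotype" is Ku70-/- minus WT and "against other sites" is Igkv8-16 minus the rest of the library. Of 927 values recomputed under alternatives, 796 kept their direction, their side of the threshold and, where untested, their size. Part of the 796 was fixed in advance. The recomputed values include the number of inhibitor against DMSO joint comparisons that passed. It was 0 under each setting, because the exact permutation test cannot go below p = 0.1. Those values say nothing about stability, so the 796 overstates it. Percent near means within 10 bp. The cause of the changes below was not tested. No paired analysis was possible because the labels give no replicate numbers, and the numbers used here follow accession order.

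With each distinct junction counted once, usage in DMSO minus cycling was 1.61 (WT, CE), 1.07 (Ku70-/-, CE) and -0.37 (WT, SE), and L82-G17 minus DMSO was 0.0901 (Ku70-/-, CE) and 0.11 (WT, SE). Genotype usage was 1.17 (DMSO), 1.28 (L67) and 1.78 (L82-G17) from the CE bait and 0.10, 0.52 and 0.45 from the SE bait. Genotype differences were 7.28 (CE) and 16.98 (SE) for direct, 5.20 for hybrid (SE), -38.6 (CE) and -33.9 (SE) for insertion, 7.36 for MH (SE) and -38.6 for near (CE). Against other sites, direct was -1.88 (Ku70-/-, CE), 4.84 (Ku70-/-, SE) and 0.65 (WT, SE), insertion -3.25 (Ku70-/-, CE), -0.66 (Ku70-/-, SE), -9.87 (WT, CE) and -0.52 (WT, SE), MH -3.94 (Ku70-/-, SE), 0.95 (WT, CE) and -0.88 (WT, SE), and near -3.49 (WT, CE).

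At preys of at least 300 bp, Ku70-/- DMSO minus cycling usage (CE) was 1.71. Genotype usage over listed libraries was -0.19 (DMSO), -0.0188 (L67) and 0.18 (L82-G17) from the CE bait and 0.50, 0.24 and -0.17 from the SE bait. The genotype difference in hybrid joints was 13.5 (CE) and 50.9 (SE), and hybrid joints against other sites were 0.52 (Ku70-/-, CE), 2.77 (Ku70-/-, SE), -0.10 (WT, CE) and 8.78 (WT, SE).

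Per 1000 junctions at break sites, Ku70-/- DMSO minus cycling was 2.09 (CE) and -0.14 (SE). Median-centered, it was 2.07 (CE) and -0.90 (SE), WT DMSO minus cycling was -0.47 (SE), and genotype usage was 2.63 (DMSO, CE) and -0.22 (cycling, SE). Per 1000 of all junctions, Ku70-/- DMSO minus cycling was 1.25 (SE), Ku70-/- L82-G17 minus DMSO 0.0533 (CE), and genotype usage 1.73 (L67, CE), -0.56 (L67, SE), -0.65 (L82-G17, SE) and -2.16 (cycling, SE).

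With the smaller sequencing run alone, usage was -0.24 (Ku70-/- DMSO minus cycling, SE) and 0.0375 (WT L82-G17 minus DMSO, SE). Against other sites, direct was 2.65 (WT, CE), insertion -0.88 (Ku70-/-, CE) and -0.62 (WT, SE), MH 5.20 (Ku70-/-, CE), -5.22 (Ku70-/-, SE) and -0.42 (WT, SE), and near 1.06 (WT, CE). With signal preys alone, direct was 2.47 (WT, SE), insertion -0.42 (Ku70-/-, CE), -0.12 (Ku70-/-, SE) and -0.59 (WT, SE), MH 3.91 (Ku70-/-, CE), -5.93 (Ku70-/-, SE) and -0.25 (WT, SE), and near 0.13 (WT, SE).

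Against the other Igkv8 sites only, insertion was 0.24 (WT, CE), MH -3.01 (Ku70-/-, SE), 1.43 (WT, CE) and -0.48 (WT, SE), and near 7.29 (Ku70-/-, CE), 2.11 (Ku70-/-, SE) and 1.10 (WT, CE). With near set to 20 bp it was 5.98 (Ku70-/-, SE), -0.0328 (WT, CE) and 0.15 (WT, SE), and the genotype difference was -27.7 (CE) and -25.9 (SE). With MH of 1 bp or more, MH against other sites was 3.23 (Ku70-/-, CE) and -4.61 (Ku70-/-, SE), and the genotype difference was 38.2 (CE) and 37.6 (SE). With prey ends told by the side of the break, hybrid against other sites was 0.71 (WT, CE) and -2.08 (WT, SE). In the listed libraries, direct was -3.19 (Ku70-/-, CE), MH -3.31 (Ku70-/-, SE) and near 3.59 (Ku70-/-, SE).

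Leaving out each library in turn, usage ranged from 1.83 to 3.29 (Ku70-/- DMSO minus cycling, CE), -0.31 to 0.90 (the same, SE), 0.97 to 3.29 (WT DMSO minus cycling, CE), -0.35 to 0.20 (WT L67 minus DMSO, CE), -0.97 to 0.0271 (WT L82-G17 minus DMSO, CE) and -0.0702 to 0.0485 (the same, SE). Against other sites, direct ranged from -3.19 to -1.76 (Ku70-/-, CE) and 3.41 to 5.17 (WT, CE), insertion from -2.51 to -0.36 (WT, CE), MH from -6.22 to -3.31 (Ku70-/-, SE) and -0.60 to -0.42 (WT, SE), and near from -5.05 to 3.59 (Ku70-/-, SE) and 0.0461 to 0.28 (WT, CE). Cycling libraries, with 7 to 616 Igkv8-16 junctions, and preys of at least 300 bp limit what these comparisons can resolve.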
